A study of Mus musculus with 18 samples.

Results

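The epithelial to mesenchymal switch genes are 10 genes that mark or drive the passage of a cell from an epithelial to a mesenchymal state. They were chosen by name, and their probes were found through the RefSeq accession that each probe of the array carries. All 10 genes have a probe, 1 each, among 19259 RefSeq symbols on the array. Total RNA of mouse cells was labeled with Cy3 and read on 18 Agilent arrays, 3 in each of 6 groups. ES is unirradiated embryonic stem cells and ED is unirradiated isogenic cells grown from them. ESRE and EDRE are the same cell types collected 15 min after 10 Gy, and ESRL and EDRL are those collected 4 h after 10 Gy. By the study's methods the stem cells are wild-type and come from mouse blastocysts, and no strain is given.

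The culture limits what the groups can stand for. ES cells were kept with leukemia inhibitory factor on gelatin, with no feeder cells. ED cells come from undirected differentiation, in which that factor and beta-mercaptoethanol were withdrawn, so no single lineage was selected. The labels give the differentiation as 1 week or until the stem cell markers were lost, and the study's methods give at least 4 days. Nothing says that the replicates of a group are separate cultures, so a p measures the spread between these samples and may be technical.

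In epithelial cells, E-cadherin (Cdh1) and the adhesion molecule Epcam hold neighbours together. In the mesenchymal switch, the zinc finger proteins Snai1, Snai2, Zeb1 and Zeb2 and the helix-loop-helix protein Twist1 repress such genes, Snai and Zeb proteins by binding E-box sequences, while N-cadherin (Cdh2), the intermediate filament vimentin (Vim) and the matrix protein fibronectin (Fn1) are typical of the mesenchymal state. Mouse ES cells grow as compact colonies joined by E-cadherin, and the switch takes place in the embryo when mesoderm forms.

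The E-box CACCTG was searched on both strands, where it reads CAGGTG on the opposite strand, in the 250 bases before each gene's start in the RefSeq promoter table, build GRCm38.p6. Of the 10 genes, 5 have an entry (Epcam, Vim, Snai1, Twist1 and Zeb2, the last with 4 windows). 4 windows are shown, because their genes lie on both sides of the switch: Epcam was lower in ED cells, and Vim, Snai1 and Twist1 were higher. They lie at chr17:87635729-87635978 (Epcam), chr2:13574061-13574310 (Vim), chr2:167537945-167538194 (Snai1) and chr12:33957421-33957670 (Twist1), all on the plus strand. Capitals mark CACCTG or CAGGTG.
Epcam: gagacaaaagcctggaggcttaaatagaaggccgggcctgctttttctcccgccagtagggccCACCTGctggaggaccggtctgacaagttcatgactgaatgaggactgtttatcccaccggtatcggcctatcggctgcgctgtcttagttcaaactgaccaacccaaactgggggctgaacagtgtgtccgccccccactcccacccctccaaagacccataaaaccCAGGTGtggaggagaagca
Vim: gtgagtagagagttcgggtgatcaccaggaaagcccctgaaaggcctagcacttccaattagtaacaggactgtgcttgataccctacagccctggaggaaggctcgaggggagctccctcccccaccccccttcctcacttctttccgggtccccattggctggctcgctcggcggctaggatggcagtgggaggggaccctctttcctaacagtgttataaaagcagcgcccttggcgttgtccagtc
Snai1: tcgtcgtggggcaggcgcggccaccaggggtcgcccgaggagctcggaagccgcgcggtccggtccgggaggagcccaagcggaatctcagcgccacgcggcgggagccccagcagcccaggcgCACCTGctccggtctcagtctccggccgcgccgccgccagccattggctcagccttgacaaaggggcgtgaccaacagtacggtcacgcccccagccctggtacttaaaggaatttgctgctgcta
Twist1: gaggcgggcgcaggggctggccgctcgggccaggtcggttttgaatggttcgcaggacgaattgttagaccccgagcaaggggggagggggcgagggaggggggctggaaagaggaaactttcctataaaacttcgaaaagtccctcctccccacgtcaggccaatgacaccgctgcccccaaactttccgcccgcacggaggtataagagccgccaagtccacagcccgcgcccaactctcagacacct
Epcam holds 2 matches, whose first bases lie 187 and 19 bases before the start. Snai1 holds 1 match, 126 bases before the start, and Vim, Twist1 and Zeb2 hold 0. The wider pattern CANNTG, which includes CACCTG, has 2 matches in the Epcam window, 1 in that of Snai1 and 0 in those of Vim, Twist1 and Zeb2, so each match of the wider pattern is one of those in capitals. Of 32851 windows of this length in the table, 17.2% hold CACCTG on either strand, 2.06% hold it 2 or more times, and 66.2% hold CANNTG. A match is a description of the letters and not of binding, which was not tested.

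Values are log2 signals from which the 75th percentile of the same array was subtracted, so that 0 stands for that percentile. They are given for replicates 1, 2 and 3 in order. The scanner software marks a spot as well above background or not, and marks uneven spots as outliers, which were left out of the fits.

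The epithelial adhesion genes are high in every ES sample and near background in every ED sample. Cdh1, which joins cells through calcium-dependent contacts, had values of 5.88, 5.43 and 5.82 in ES and -7.30, -7.49 and -7.90 in ED. The 3 ES samples are all high, the 3 ED samples are all low, and only replicate 1 of ED was well above background. Epcam, which is expressed on epithelial and pluripotent cells, had values of 2.09, 2.08 and 2.17 in ES and -7.84, -7.64 and -7.44 in ED. Again the groups lie far apart, and no ED sample was well above background for Epcam. Cdh1 was lower in ED, with a fitted log2 change of -13.27 (standard error 0.70, limma adjusted p 5.74e-10) whose size depends on background, as 2 of the 3 ED spots were not well above it. Epcam was at least 777-fold lower (limma adjusted p 2.18e-13). A bound of this kind is given where no sample of the dim group was well above background, and it sets the dim group at the lowest signal that the arrays marked as such. Each such bound holds for the background subtraction of the scanner software only. Over the alternatives the fitted log2 change of Epcam ran from -9.75 to -7.60, while its bound is 9.60 in size. In bulk RNA, fewer cells that express a gene and less RNA per cell cannot be told apart.

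Among the mesenchymal effectors, Vim is high in all samples and higher in ED cells. Vim, an intermediate filament protein, had values of 4.72, 4.76 and 4.67 in ES and 7.17, 7.40 and 7.66 in ED. All ED samples lie above all ES samples, and the spot of ES replicate 3 was an outlier and left out. Cdh2, the cadherin of neural and mesenchymal cells, had values of -1.80, -2.29 and -2.32 in ES and 1.38, 0.89 and 0.55 in ED. The ED samples again lie above the ES samples without overlap, with replicate 1 of ES left out as an outlier. Fn1, which forms fibrils that cells attach to, had values of 5.33, 5.18 and 4.86 in ES and 5.98, 6.32 and 6.21 in ED. The ED samples are higher without overlap, but all 3 ES spots were outliers, so that Fn1 has no test here with them left out.

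Vim was 6.36-fold higher in ED (log2 change 2.67, standard error 0.26, limma adjusted p 6.38e-05). Cdh2 had a log2 change of 3.24 with the wide standard error of 1.13 (limma adjusted p 0.0394), to which replicate 1 of ESRL adds: without that array the standard error is 0.42 and the adjusted p 3.72e-04. The call for Cdh2 was lost without ED replicate 1, 2 or 3 (adjusted p 0.0990, 0.0798 and 0.0658), ES replicate 2 or 3 (0.124 and 0.127), ESRE replicate 1 or 3 (0.0566 and 0.0552) or ESRL replicate 3 (0.0521). With outlier spots kept, Fn1 had a log2 change of 1.05 (standard error 0.38, limma adjusted p 0.0321), and it too lost its call without ED replicate 2 or 3 or ES replicate 2 or 3, where the change was 0.98, 1.03, 1.08 and 0.92.

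The transcription factors of the switch were all higher in ED cells. Snai1, a zinc finger repressor of Cdh1, had values of -1.30, -1.39 and -1.45 in ES and -0.30, -0.08 and -0.01 in ED. Its 3 ED samples lie above its 3 ES samples by more than the spread within either group. Snai2, the Slug repressor of neural crest and mesenchyme, had values of -2.23, -2.13 and -2.28 in ES and 2.67, 2.50 and 2.19 in ED. Twist1, a helix-loop-helix factor of mesoderm and neural crest, had values of 0.80, 0.80 and 0.60 in ES and 4.18, 4.76 and 4.82 in ED. For Snai2 and Twist1 the ED samples are high, the ES samples are low, and the gap between the groups is many times the spread within them. Zeb1, a repressor with zinc fingers at both ends, had values of 0.81, 0.74 and 0.65 in ES and 2.97, 3.49 and 3.33 in ED. Zeb2, its paralog, had values of -9.75, -9.66 and -10.08 in ES and -4.40, -4.92 and -5.18 in ED. Both Zeb genes are higher in all 3 ED samples, and Zeb2 was well above background in the 3 ED samples and in no ES sample.

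Snai2 was 25.5-fold higher in ED (log2 change 4.67, standard error 0.23, limma adjusted p 2.32e-09), and Twist1 14.4-fold (3.85, 0.18, 1.22e-09). Zeb1 was 5.77-fold higher (log2 change 2.53, standard error 0.20, limma adjusted p 4.70e-08). Snai1 was 2.37-fold higher (log2 change 1.25, standard error 0.14, limma adjusted p 7.58e-06). Zeb2 was at least 8.01-fold higher (limma adjusted p 8.15e-06), and its fitted log2 change of 4.996 went to 1.55 with normexp background correction (adjusted p 0.00596).

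**Figure D1:**
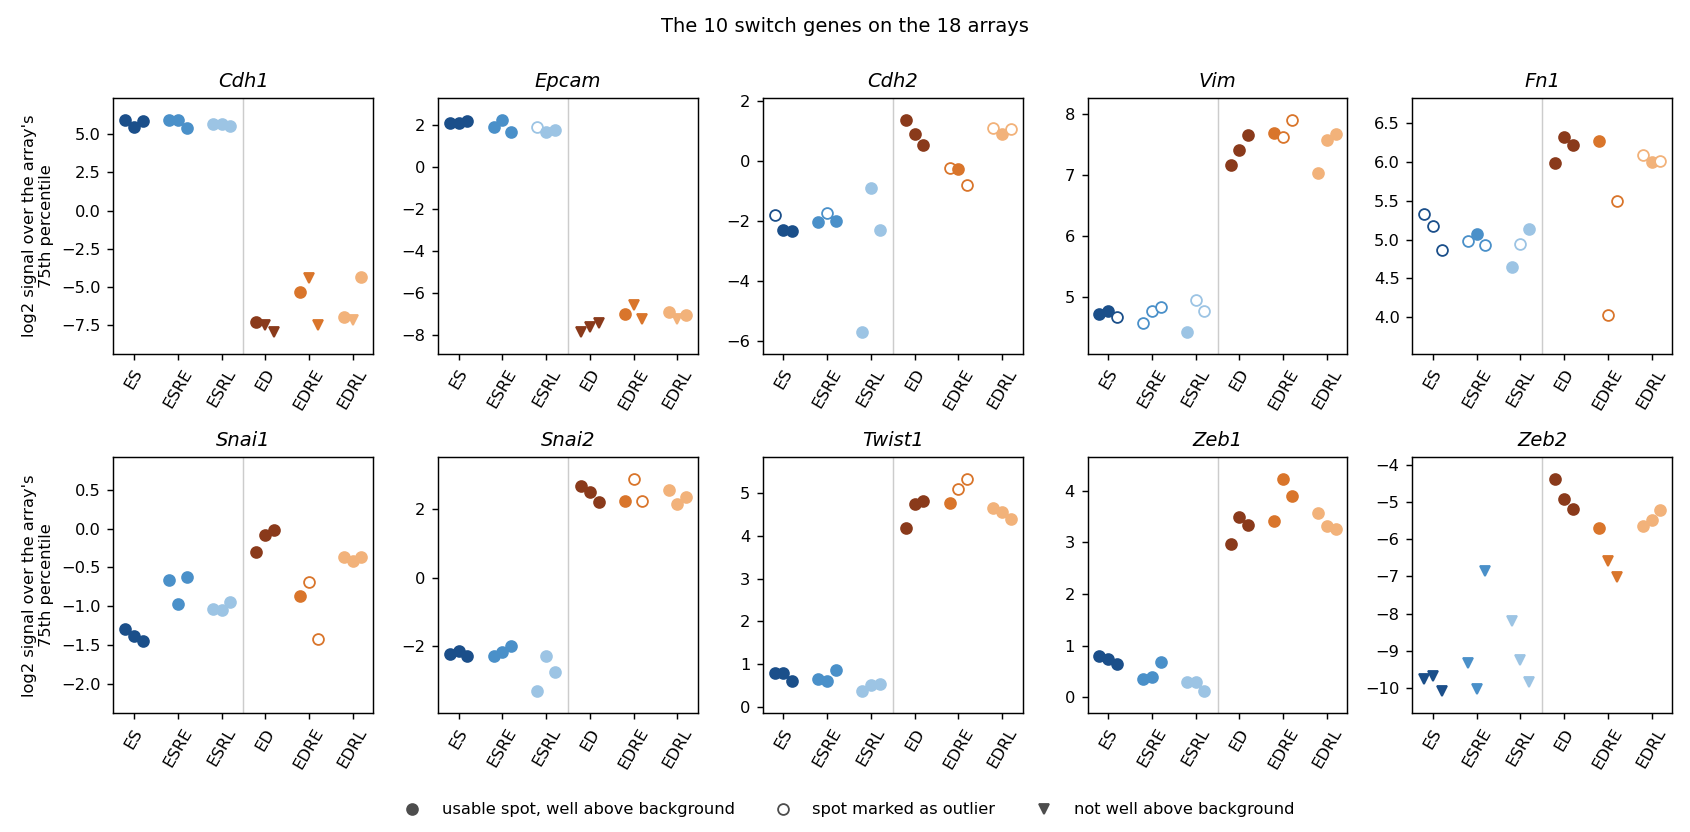
Log2 signal of each switch gene minus that of the 75th percentile (vertical axis, 1 panel per gene with its own scale) on 18 arrays in 6 groups, 3 points per group. Filled circles are usable spots, open circles are outlier spots and triangles are spots not well above background. Cdh1 and Epcam are high in the 3 ES groups and low in the 3 ED groups, and the mesenchymal genes run the other way except Snai1 and Zeb2, whose ranges overlap, and Fn1, which overlaps where outlier spots count.

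Counted together, 10 of 10 genes passed the detection filter in ED against ES, which asks that all 3 samples of 1 of the groups be well above background, and 9 could be tested. Of these, 7 were higher in ED and 2 lower, where passing means a change of more than 2-fold with an adjusted p below 0.05. Over the array, 41.7% of 28636 probes tested passed in either direction, 15.1% higher and 26.6% lower, so large differences between these cells are common, and 9 of 9 lies above that share. Cdh1 and Epcam passed the filter through ES alone and Zeb2 through ED alone, so for these 3 the filter itself favors a difference. The other 6 genes that were tested passed it in both groups, and all 6 were higher in ED. The median change was 2.67 for the 9 genes and -0.19 over all probes tested. That last value moves with the scaling, to 0.46 where arrays are set to their median and 0.22 after quantile normalization, and the share of calls that are higher moves from 36.2% to 59.1% and 51.4%. Under these scalings all 9 kept their direction and their call.

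Scan time runs with the groups: the 3 ED arrays were scanned with replicate 3 of ESRE, and the 3 ES arrays were scanned together at another time. A fit with scan time as a random block gave 2.67 for Vim, 1.16 for Snai1, 4.47 for Snai2, 3.73 for Twist1 and 2.42 for Zeb1, with adjusted p between 4.72e-06 and 0.00835. Cdh1, Epcam and Zeb2, which have 1 group near background, kept their direction and their call (adjusted p 1.44e-05, 1.93e-09 and 0.00196). Cdh2 was no longer called in that fit (2.71, adjusted p 0.250), nor was Fn1 with outlier spots kept (1.03). Within the shared scan time, ED minus ESRE replicate 3 was 2.94 for Cdh2. Cdh1 and Epcam were at 5.38 and 1.64 on that ESRE array and near background in ED, and Zeb2 was not well above background on that array, so no difference is given for these 3. For the factors that difference was 0.49 for Snai1, 4.45 for Snai2, 3.71 for Twist1 and 2.58 for Zeb1. With outlier spots kept it was 2.57 for Vim and 1.24 for Fn1. These within-scan values rest on 1 irradiated ES array and carry no test, and that of Snai1 is far under its change between all ED and ES samples.

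Most other genes of the epithelial side were also lower in ED cells, as Cdh1 and Epcam were. Of 25 epithelial junction and keratin genes on the array, 22 were tested in ED against ES, of which 22 were lower and 0 higher. Over all probes tested, 26.6% were lower and 15.1% higher. The median change of the 22 genes was -7.37 (-7.09 with the 8 bounded genes at their bound), beside -0.19 for all probes. Krt18, a keratin of simple epithelia, was at least 2765-fold lower, and Crb3, a polarity protein, at least 604-fold. Cldn4, a tight junction claudin, had a log2 change of -11.94 (limma adjusted p 1.95e-12). Of 11 epithelial regulators, 10 were tested, of which 8 were lower and 0 higher, with a median of -4.80. The grainyhead factors Grhl3 and Grhl2 changed by -9.62 and -7.94 and the splicing factor Esrp1 by -9.24 on the log2 scale (limma adjusted p 8.41e-14, 3.32e-12 and 1.25e-09). Klf4 (0.05) and Ovol1 (0.15) did not pass. Many of these genes passed the filter through ES alone, so their fall in ED carries the same limit as that of Epcam.

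On the mesenchymal side the genes split more. Of 28 matrix and cytoskeleton genes, 22 were tested, of which 15 were higher and 3 lower, with a median of 3.43. Over all probes tested, 15.1% were higher and 26.6% lower. S100a4, a calcium-binding protein of fibroblasts, changed by 10.20, the proteoglycan Dcn by 7.99 and the collagen cross-linking enzyme Lox by 7.66 (limma adjusted p 1.69e-11, 5.22e-11 and 9.59e-09). The surface protein Thy1 was at least 422-fold lower in ED, and the actin-binding protein Tagln changed by -2.81. Of 13 other transcription factors of the switch, 10 were tested, of which 7 were higher and 3 lower, with a median of 3.64. Those 3 of 10 are near the 26.6% of all probes that were lower. The mesenchymal homeobox factor Prrx1 changed by 8.21 and the forkhead factors Foxc1 and Foxc2 by 6.39 and 5.65, while the T-box factors Tbxt and Eomes, which act at gastrulation, changed by -6.48 and -3.17, and Snai3 by -1.77.

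**Figure D2:**
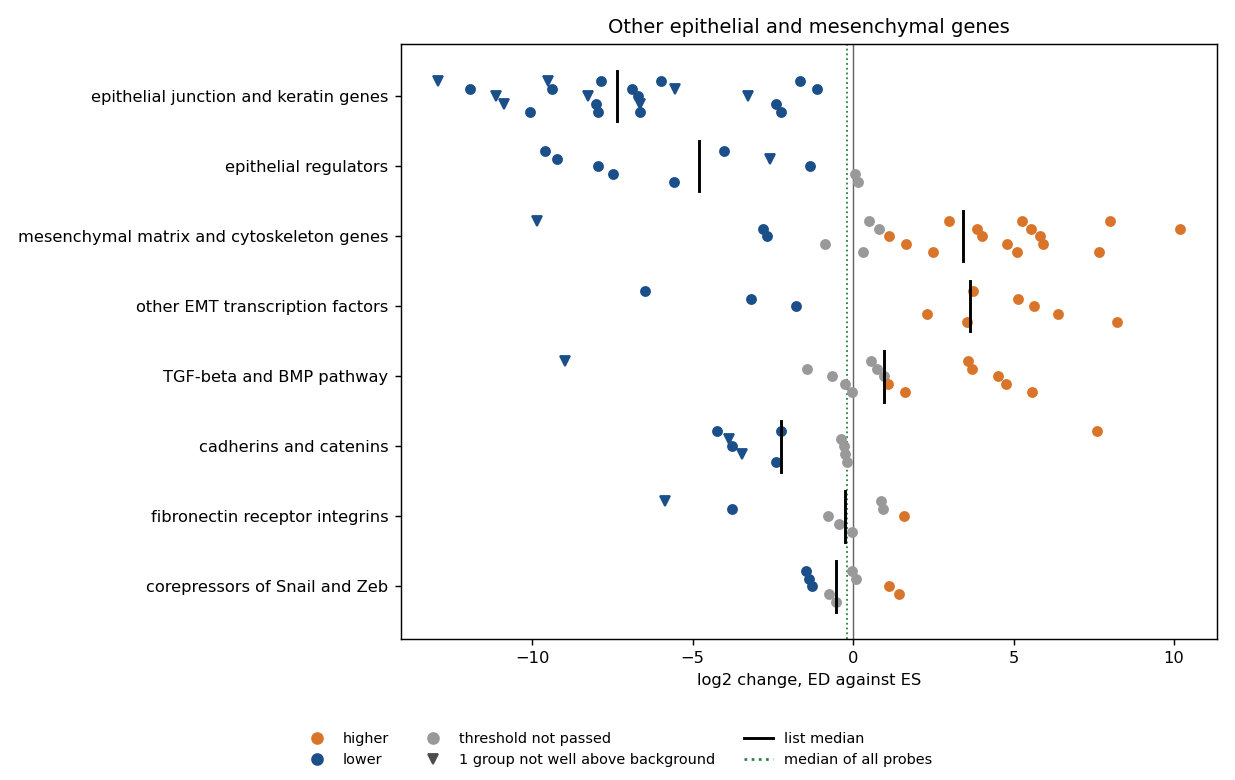
Log2 change in ED against ES (horizontal axis) of each tested gene of 8 lists of pathway genes. Orange and blue points passed as higher and lower, gray points did not pass, triangles have 1 group with no sample well above background, black bars are list medians and the dotted line is the median of all probes tested. The epithelial junction list lies wholly below 0, with a median of -7.37, and the matrix list has a median of 3.43.

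Signals and partners of the switch were mixed. Over all probes tested 15.1% were higher and 26.6% lower, or 41.7% in either direction. Below, 8 of 15 TGF-beta genes, 3 of 8 integrin genes and 5 of 9 partners of Snail and Zeb passed. Of 16 TGF-beta and BMP pathway genes, 15 were tested, of which 7 were higher and 1 lower, with a median of 0.95, or 10 higher with a median of 1.61 with arrays set to their median. Ltbp1, which binds latent TGF-beta, changed by 5.57, and the ligands Tgfb3 and Inhba by 4.75 and 4.52, while the BMP ligand Bmp7 was at least 138-fold lower. Of 11 cadherins and catenins, 11 were tested, of which 1 was higher (Cdh13, 7.61, on 1 usable ED spot) and 6 lower, with a median of -2.25 (-1.59 with 2 genes at their bound). Among the lower genes, Cdh5 changed by -4.24 and Cdh4 by -3.78, and Ctnna2 was at least 6.18-fold lower. The catenins that bind Cdh1 and Cdh2 alike did not pass: Ctnnb1 changed by -0.20, Ctnna1 by -0.28 and Ctnnd1 by -0.38 (limma adjusted p 0.485, 0.244 and 0.256). Of 9 fibronectin receptor integrins, 8 were tested, of which 1 was higher (Itgav, 1.59) and 2 lower (Itga8, at least 41.2-fold, and Itga4, -3.77). Their median was -0.24, and it turns to 0.40 with arrays set to their median and 0.11 after quantile normalization, with 3 higher and 2 lower in both. Of 9 corepressors and other partners of Snail and Zeb, 9 were tested, of which 2 were higher (Ctbp1, 1.42, and Gsk3b, 1.11) and 3 lower (Kdm1a, -1.48, Ctbp2, -1.39, and Sin3a, -1.28). Their median of -0.53 turns to 0.12 with arrays set to their median, where 2 were higher and 0 lower.

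The labels of the cell types were set against marker lists. Pluripotency genes had a summed level, in multiples of the 75th percentile, of 239 to 283 in ES, where 8 of 8 were well above background and Pou5f1 was the brightest, and of 5.11 to 5.84 in ED, where Sox2 was the brightest. Of these 8 genes, 7 were tested, of which 7 were lower, beside 26.6% of all probes, with a median of -7.62 (Pou5f1 -10.29, Tdgf1 -10.12, Nanog -8.85). Zfp42 was not well above background in any ED sample. The 8 fibroblast markers, all 8 of which are also in the matrix list, summed to 7.29 to 8.37 in ES and 182 to 206 in ED, where Col1a1 was the brightest and Thy1 was not well above background. Of these, 7 were higher and 1 lower, beside 15.1% and 26.6% of all probes, with a median of 4.71 (Dcn 7.99, Col1a2 5.91, Col3a1 5.82). These markers move with the switch genes between ES and ED, and their part in those differences was not tested.

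Markers of other lineages were mostly lower or low in ED, in lists of 4 to 7 tested genes, beside 15.1% of all probes higher and 26.6% lower. Of 7 extraembryonic endoderm markers tested, 1 was higher (Dab2, 2.06) and 5 lower (Sox7 -5.20, Foxa2 at least 8.60-fold and Amn at least 5.15-fold among them), with a median of -3.998 (-2.37 at the bounds) and sums of 7.60 to 8.65 in ES, led by Cubn, and 4.22 to 5.54 in ED, led by Dab2. Of 5 trophoblast markers tested, 5 were lower (Tfap2c -7.74, Ascl2 -6.72, Cdx2 at least 11.6-fold among them), with a median of -5.67 (-5.34 at the bounds) and sums of 16.7 to 19.0 in ES, led by Tfap2c, and 0.164 to 0.212 in ED, led by Hand1. Of 6 neural markers tested, 1 was higher (Map2, 1.94) and 1 lower (Pax6, -1.41), with a median of 0.37 and sums of 5.60 to 5.84 in ES and 7.04 to 9.33 in ED, led by Nes in both. With arrays set to their median, 3 neural markers were higher and 0 lower with a median of 1.01, and after quantile normalization 1 was higher and 0 lower. Of 4 endothelial markers tested, 4 were lower (Tek -4.64, Vwf -4.24, Cdh5 -4.24 among them), with a median of -4.24 and sums of 5.15 to 6.39 in ES, led by Pecam1, and 0.0863 to 0.0949 in ED, led by Tek. Of 5 muscle markers tested, 5 were lower (Myl7 at least 177-fold, Actc1 -4.27 and Tnnt2 -3.69 among them), with a median of -3.69 and sums of 1.67 to 1.70 in ES, led by Myl7, and 0.0732 to 0.101 in ED, but only 3 were lower under either of these scalings. Of 4 blood cell markers tested, 2 were higher (Cd14 4.52, Hbb-bh1 1.48) and 0 lower, with a median of 0.50 (1.14 and 1.32 under these scalings) and sums of 0.435 to 1.19 in ES, led by Spi1, and 1.73 to 1.93 in ED, led by Cd14, and the pan-blood marker Ptprc was not well above background in either group. Markers such as Amn, Foxa2, Cdx2 and Myl7 passed the filter through ES alone, so for these the filter itself favors a fall. The part of these lineage markers in the values of the switch genes was not tested.

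The cell types were also compared after irradiation, in the same fit. At 15 min, Cdh1 and Epcam were again the low genes of ED cells. Cdh1 had values of 5.92, 5.91 and 5.38 in ESRE and -5.30, -4.39 and -7.47 in EDRE, and Epcam 1.88, 2.22 and 1.64 in ESRE and -6.99, -6.59 and -7.25 in EDRE. The ESRE samples are all high and the EDRE samples all low, with only replicate 1 of EDRE well above background for either gene. The fitted log2 change was -11.45 for Cdh1 and -8.86 for Epcam (limma adjusted p 2.12e-09 and 1.80e-13), and the size of both depends on background. Zeb1 was higher by 3.36 (limma adjusted p 1.26e-09), without overlap of the groups. Snai2 and Twist1 were higher by 4.37 and 4.06, each on 1 usable EDRE spot, which lies above all ESRE samples. With outlier spots kept they were higher by 4.59 and 4.36 (limma adjusted p 2.20e-10 and 2.72e-11), without overlap of the groups.

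Replicates 2 and 3 of EDRE limit this comparison. Their 75th percentile signals were 875 and 1155 (the other EDRE array had 3034), and 24.4% and 23.8% of their spots were outliers, so that 6 of the 10 genes have usable spots on 1 EDRE array only. Of 10 genes, 9 passed the filter and 8 were tested, 4 higher and 2 lower, where 46.6% of 24487 probes passed in either direction, 18.8% higher and 27.7% lower. Cdh1 and Epcam passed the filter through ESRE alone, and the median change was 1.49 for the 8 genes and -0.17 over all probes tested. Without replicate 1 of EDRE, 3 genes were called. That array carries the only usable EDRE spot of Vim, Fn1, Snai1, Snai2 and Twist1, which could not be tested without it. Snai1 (-0.11) and Cdh2 (1.77) did not pass, each on 1 usable EDRE spot. For Cdh2 that spot is on replicate 2, a dim array, and is set against 2 usable ESRE spots. Cdh2 was called without replicate 1 of ESRL, with only the compared groups and by the t-test. These calls rest on that 1 EDRE spot, which has no spread of its own, so they do not decide whether Cdh2 differed. Cdh2 passed with the deposited values (limma adjusted p 0.0107), and was not called with outlier spots kept. Fn1 passed at 1.20 on 1 usable spot in each group, and at 2.15 with arrays set to their median. Where outlier spots are kept Fn1 was at 0.27 (limma adjusted p 0.560) and was not called. It also lost its call with normexp correction (0.0501), no detection filter (0.0807), a scan block (0.0668), a replicate block (0.0700) and the deposited values (change 0.98), and without ED replicate 1, 2 or 3 (0.0570, 0.0651 and 0.0699) or ESRE replicate 3 (0.0529). Vim had no usable ESRE spot, and with outlier spots kept it was higher by 3.004 (adjusted p 3.29e-09). Zeb2 was well above background in 1 EDRE sample and no ESRE sample and was not tested. Setting arrays to their median moves the share of calls that are higher from 40.5% to 67.1%, and quantile normalization to 50.6%.

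At 4 h, 9 of the 10 genes differed between ED and ES cells. Cdh1 had values of 5.65, 5.64 and 5.50 in ESRL and -6.95, -7.16 and -4.36 in EDRL, and Epcam 1.89, 1.62 and 1.72 in ESRL and -6.93, -7.24 and -7.05 in EDRL. No scan time holds both groups here or at 15 min, and with scan time as a random block 7 genes were called at 4 h and 5 at 15 min. Both adhesion genes are high in the ESRL samples and low in the EDRL samples, of which 2 were well above background. The changes were -11.75 and -8.75 (limma adjusted p 1.51e-09 and 7.48e-13). Snai2 was 34.8-fold higher, Twist1 16.8-fold and Zeb1 8.84-fold (limma adjusted p 6.01e-10, 4.34e-10 and 2.67e-09), and Zeb2 was at least 3.09-fold higher (adjusted p 1.40e-04). Vim was 7.96-fold higher, but on 1 usable ESRL spot, that of replicate 1. With outlier spots kept, Vim had a log2 change of 2.71 (limma adjusted p 1.40e-08). Cdh2 (3.86) and Fn1 (1.11) passed narrowly, each on 1 usable EDRL spot. With outlier spots kept they changed by 3.99 and 1.12 (limma adjusted p 3.43e-04 and 0.0191). Cdh2 had values of -5.69, -0.90 and -2.30 in ESRL, so the size of its change depends on replicate 1 of ESRL. Snai1 was higher in 3 of 3 EDRL samples, by 0.63 (adjusted p 0.00169), and did not reach the fold limit.

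Of 10 genes that passed the filter and were tested at 4 h, 7 were higher and 2 lower, where 49.0% of 26395 probes passed, 24.1% higher and 24.9% lower. The median change was 3.07 for the 10 genes and 0.06 over all probes tested. Cdh1 and Epcam passed through ESRL alone and Zeb2 through EDRL alone. Cdh2 lost its call without ED replicate 1, 2 or 3 (adjusted p 0.0571, 0.0573 and 0.0570), ES replicate 2 or 3 (0.0580 and 0.0579), ESRE replicate 1 or 3 (0.0573 and 0.0564) or ESRL replicate 3 (0.0510), and with no detection filter (0.0589), a scan block (0.0605), a replicate block (0.118), only the compared groups (0.176) and the t-test (unadjusted p 0.307). Fn1 lost its call without ED replicate 2 or 3 (0.0536 and 0.0576) or ESRL replicate 1 (0.0915), with no detection filter (0.0597), a scan block (0.0924), a replicate block (0.88, adjusted p 0.190), only the compared groups (0.0912), the t-test (unadjusted p 0.234) and without the 3 arrays of EDRE and ESRL that are dimmer (change 0.86, adjusted p 0.0509). Zeb2 lost its call after normexp background correction (1.00, adjusted p 0.0540), where its change is under its log2 bound of 1.63. Setting arrays to their median moves the share of calls that are higher from 49.2% to 65.5%, with Snai1 then called at 1.11 (adjusted p 1.32e-04), and quantile normalization moves it to 57.7%.

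**Figure D3:**
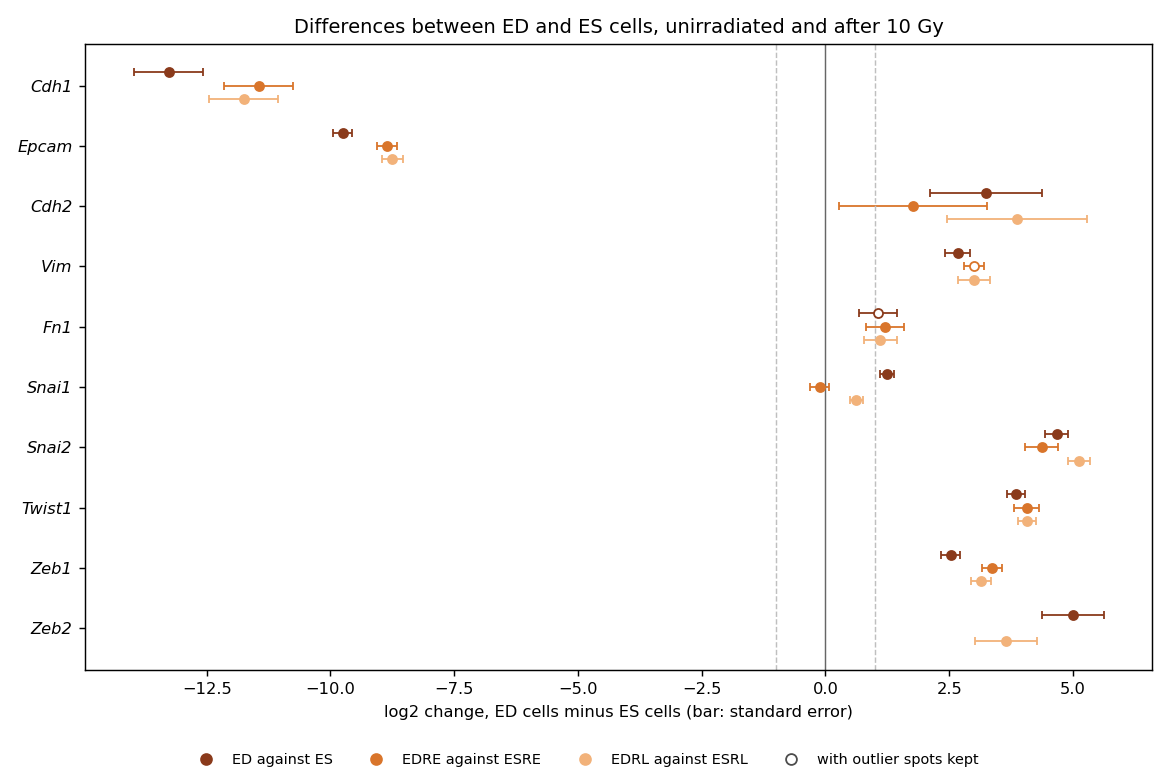
Log2 change between ED and ES cells (horizontal axis) for each switch gene in unirradiated cells, 15 min and 4 h after 10 Gy. Points are fitted changes, bars are standard errors, open points keep outlier spots and dashed lines mark a log2 change of 1 in size. Cdh1 and Epcam lie to the left in all 3 comparisons, from -8.75 to -13.27, and Snai1 moves from 1.25 to -0.11 and 0.63.

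Over all arrays on which a gene has a usable spot, the values of 8 of the 10 genes do not overlap between ES and ED cells, but Vim and Fn1 have such spots on 3 ES arrays only, and Cdh2 and Fn1 on 5 ED arrays. Of the 3 genes with a value on every array, 2 do not overlap (Cdh1 and Zeb1), which holds for 28.9% of 18277 probes with as many values. The exceptions are Snai1, which ran from -1.45 to -0.62 on ES arrays and from -0.86 to -0.01 on ED arrays, and Zeb2, from -10.08 to -6.86 and from -7.00 to -4.40. The overlapping values of Zeb2, in replicate 3 of ESRE and replicate 3 of EDRE, were not well above background. With outlier spots kept, 7 of 10 do not overlap, since Fn1 then has 1 EDRE value of 4.03 under its ES range of 4.64 to 5.32. The share of all probes without overlap was not taken with outlier spots kept, so 7 of 10 has no share to set it against.

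By group means, Cdh1 was at 5.71, 5.73 and 5.59 in ES, ESRE and ESRL, which lie within their spread (standard deviations 0.25, 0.31 and 0.09), and at -5.72, -6.16 and -7.56 in EDRE, EDRL and ED, where EDRE and EDRL lie within their spread (1.58 and 1.56). Only 1 EDRE, 2 EDRL and 1 ED sample were well above background for Cdh1, so its order over the ED groups depends on background. Zeb1 had group means of 3.84, 3.38 and 3.26 in EDRE, EDRL and ED and 0.73, 0.48 and 0.24 in ES, ESRE and ESRL, and EDRL and ED do not differ beyond their standard deviations of 0.17 and 0.26. Snai1 ran from ED (-0.13) through EDRL (-0.39), ESRE (-0.75), EDRE (-0.86, 1 usable array) and ESRL (-1.01) to ES (-1.38). All irradiated groups of Snai1 thus lie between the unirradiated ones, and ESRE and EDRE do not differ beyond the ESRE standard deviation of 0.19.

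At 15 min after irradiation, the fitted changes of Snai1 ran in opposite directions in the 2 cell types. In ES cells at 15 min, Snai1 had values of -0.66, -0.97 and -0.62, above all 3 unirradiated samples. That difference, 0.63 with a standard error of 0.14, had a limma adjusted p of 0.0834 and did not pass. At 4 h the ESRL values of Snai1 were -1.04, -1.05 and -0.94, with a change of 0.37 (adjusted p 0.130). In ED cells at 15 min, Snai1 had values of -0.86, -0.68 and -1.42, with replicates 2 and 3 left out as outliers. All 3 lie below the unirradiated ED samples, and the change of -0.73 (standard error 0.19, limma adjusted p 0.0426) was under the fold limit. At 4 h the EDRL values were -0.37, -0.41 and -0.37, with a change of -0.26 (adjusted p 0.457).

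The interaction of Snai1 at 15 min passed, on 1 usable EDRE spot and not in all alternatives. This interaction, the change in ED cells minus that in ES cells, was -1.36 (standard error 0.25, limma adjusted p 0.0212). It was the 1 call among 8 genes tested of 10 that passed the filter, 0 higher and 1 lower, where 1.98% of 28098 probes passed, 1.16% higher and 0.811% lower. An unadjusted limma p under 0.05 was found for 4 genes. The share of all probes under that looser threshold was not taken, so this count has no share to set it against. Replicate 1 of EDRE carries the only usable EDRE spot of Snai1, so that without it the interaction could not be fitted for Snai1, while Zeb1 (1.05, adjusted p 0.00765) and Zeb2 (-3.06, adjusted p 0.0227) were then called, the latter with no ES or ESRE sample well above background. The call of Snai1 was lost without ED replicate 2 (adjusted p 0.0585), ES replicate 1, 2 or 3 (0.0546, 0.0589 and 0.0602) or ESRE replicate 1 or 3 (0.0571 and 0.0587), with normexp background correction (-1.13, 0.0971) and with arrays set to their median (-1.10, 0.0838). With scan time as a random block the interaction was -1.28 with an adjusted p of 1.00, and the groups share too few scan times for a value within one.

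Of the other genes, Zeb1 had an interaction of 0.83 and Zeb2 of -2.69 at 15 min (limma adjusted p 0.136 and 0.128), neither of which passed, and normexp correction turned that of Zeb2 to 0.21. Cdh1 and Epcam are near background in ED cells and Zeb2 in ES cells, so their interactions, which are part of the counts and medians here, rest in 1 cell type on signals near background. The median interaction was -0.05 for the 8 genes and 0.22 over all probes tested. At 4 h, limma called 0 of 9 genes tested, where 1.07% of 28375 probes passed, with medians of 0.45 for the 9 genes and 0.15 for all probes. There 3 genes had an unadjusted limma p under 0.05, again with no share of all probes at that threshold. Snai1 had -0.62 there (adjusted p 0.172). The t-test of the study's methods compares a pair of groups and gives no interaction.

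Within each cell type, limma called 0 switch genes, where few probes of the array passed as well. No scan time holds an irradiated group with its own control, so scan time and irradiation cannot be told apart. In ESRE against ES, 9 of 10 genes passed the filter and 7 were tested, 0.463% of 27875 probes passed, and 1 gene (Snai1) had an unadjusted p under 0.05. In ESRL against ES, 9 passed and 8 were tested, 7.03% of 27966 probes passed, and 3 genes (Snai1, Snai2 and Zeb1) had an unadjusted p under 0.05. In EDRE against ED, 8 passed and 8 were tested, 4.85% of 24490 probes passed, and 3 genes (Snai1, Zeb1 and Zeb2) had an unadjusted p under 0.05. In EDRL against ED, 8 passed and 8 were tested, 1.61% of 25412 probes passed, and 0 genes had an unadjusted p under 0.05. The shares of probes are for the adjusted p with the fold limit. No share was taken for the unadjusted p, so the counts of genes under it cannot be set against them. The t-test of the study's methods, unadjusted and with a change over 2-fold, called 0, 0, 1 (Zeb2) and 0 genes in these comparisons, and 0 in each after adjustment. The medians were 0.02, -0.37, -0.07 and -0.07 for the genes tested and -0.08, -0.16, 0.03 and -0.09 for all probes.

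Changes that did not pass were larger in a few genes. Zeb2 had values of -5.69, -6.59 and -7.00 in EDRE, all below its ED samples and 2 of them not well above background. Its change of -1.59 had an adjusted p of 0.121, and it was called without EDRE replicate 1 (-1.96, adjusted p 0.0329) or ESRE replicate 3 (adjusted p 0.0422). It was 0.56 with normexp correction, the other direction, -0.52 with a scan block and -0.86 without the dimmer arrays, and not called in any of these. Cdh2 had values of -0.21, -0.25 and -0.81 in EDRE, all below its ED samples, with replicates 1 and 3 left out as outliers. Its change of -1.19 had an adjusted p of 0.674 (-1.36 and 0.216 with outlier spots kept), and was -0.65 with a scan block and -2.02 with a replicate block. Zeb1 had values of 3.42, 4.22 and 3.90 in EDRE, with a change of 0.58 (adjusted p 0.0770), and 0.29, 0.31 and 0.12 in ESRL, with a change of -0.49 (adjusted p 0.136). Its EDRE range overlaps that of ED, and its ESRL samples lie below all ES samples. Snai2 changed by -0.56 and Epcam by -0.44 in ESRL against ES (adjusted p 0.161 and 0.238). Cdh1 and Epcam were near background in all ED groups and were not tested for a response there.

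**Figure D4:**
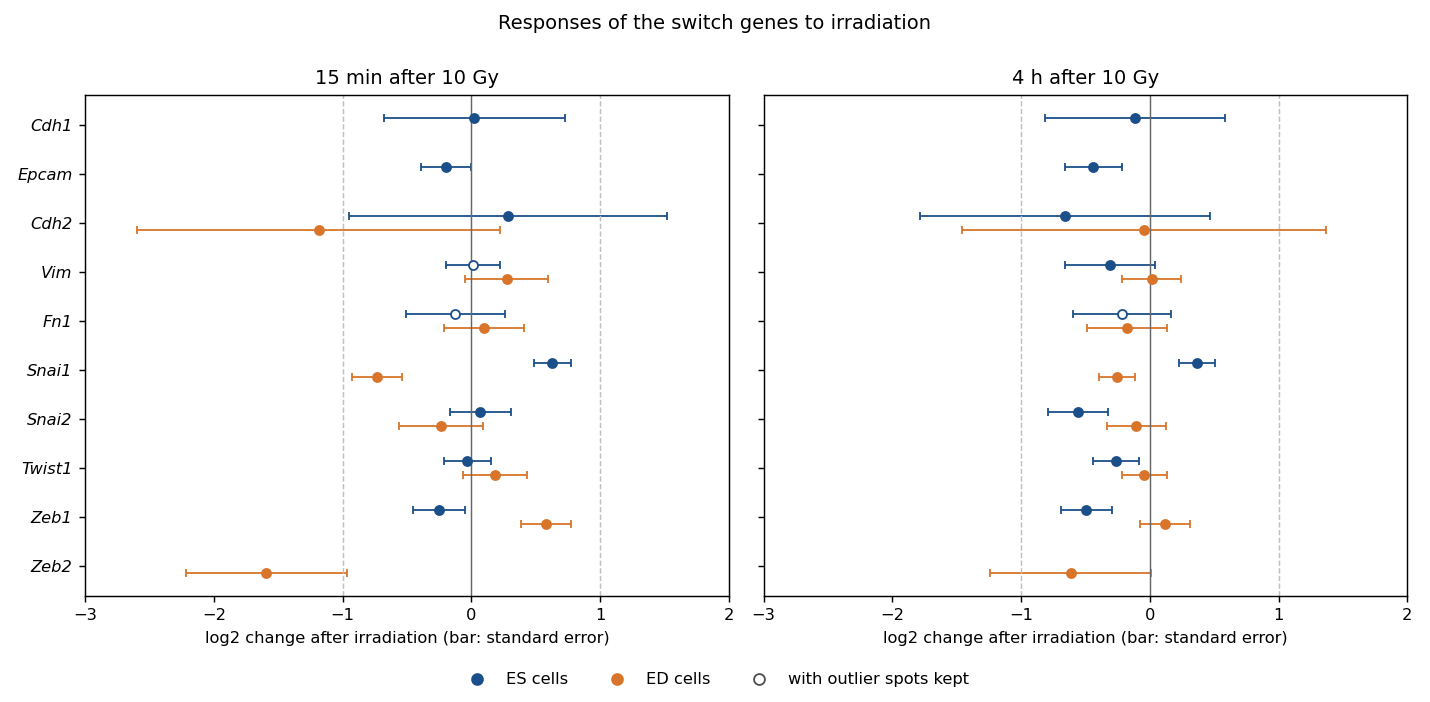
Log2 change after 10 Gy (horizontal axis) at 15 min (left) and 4 h (right) for each switch gene in ES cells (blue) and ED cells (orange). Points are fitted changes, bars are standard errors, open points keep outlier spots and dashed lines mark a log2 change of 1 in size. At 15 min Snai1 lies at 0.63 in ES cells and -0.73 in ED cells, and no gene passed within a cell type.

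Of the pathway lists, the epithelial regulator Grhl3 showed the largest response in ED cells. Grhl3, a grainyhead factor of surface epithelia, had values of -6.71, -6.96 and -7.08 in ED, -4.65, -5.53 and -5.38 in EDRE and -3.24, -3.35 and -3.36 in EDRL, against 2.73, 2.67 and 2.70 in ES. The EDRL samples are all above the ED samples and far below the ES samples, and were all well above background, as 1 of 3 ED and 1 of 3 EDRE samples were. Grhl3 rose by 3.60 in EDRL against ED (standard error 0.19, limma adjusted p 1.60e-07), and by 2.24 with normexp correction (adjusted p 0.00160). It passed the filter through EDRL alone, so the filter itself favors a rise, and the size of the change depends on background. With scan time as a random block the change was 3.38 (adjusted p 6.27e-05), and within the scan time that EDRL shares with replicate 1 of EDRE the difference between them was 1.33. Its interaction was 4.04 at 4 h (adjusted p 1.37e-05), which normexp background correction took to 2.52 (adjusted p 0.0606), and 2.23 at 15 min (adjusted p 0.00320), which was not called with scan time as a block (adjusted p 0.593). The size of both interactions depends on background, as only 1 of 3 ED and 1 of 3 EDRE samples were well above it.

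Genes whose 6 group means, centred on their own mean, lie nearest to those of a switch gene were sought by root mean square difference on the log2 scale. Those nearest to Cdh1 were Fgf4 (0.345), Igf2 (0.346) and Lama1 (0.422), over 6 groups and 15051 genes. Those nearest to Epcam were Thy1 (0.174), Gm13057 (0.242) and Cldn7 (0.248). Cdh1 and Epcam are near background in the ED groups, as Thy1 is in ED, so these distances depend in part on background. Vim has no usable ESRE spot and was compared over 5 groups with 15133 genes, where Hoxb6 (0.0548), S100a1 (0.0602) and Abca5 (0.0757) were nearest. Fn1 was compared over the 5 groups without ES with 15503 genes, where Ift74 (0.0388), Gatc (0.0463) and Mia2 (0.0550) were nearest. The ESRL and EDRE means of Vim and the ESRE, EDRE and EDRL means of Fn1 rest on 1 usable spot each. With outlier spots kept the EDRE mean of Fn1 goes from 6.27 to 5.27, a move far larger than these distances.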

How the data were processed

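RNA of 18 samples in 6 groups was measured on 1-color arrays. As the authors deposited them, the processed signals of the spots are intensity values from Agilent Feature Extraction (10.7.3.1 in the file headers, 9.1 in the processing notes), with background subtracted and no normalization across arrays. The other columns deposited, marks of 0 or 1 for outliers and for signals well above background, are as the scanner software wrote them. The authors also deposited log2 values of 30133 probes, which were used as an alternative.

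Log2 signals, with outlier spots left out, had the 75th percentile of their array subtracted, and 37246 probes were kept. A mean was fitted for each of 6 groups with limma 3.58.1 in R 4.3.3, with variances moderated for each comparison and Benjamini-Hochberg adjustment. A gene was called where it changed by more than 2-fold with an adjusted p below 0.05. A probe was tested where the 3 arrays of 1 of the groups compared were all well above background, and on an array between 49.8% and 86.3% of spots were. The procedure was run on simulated arrays with known changes. Their spread was independent between arrays, with no effect of scan time, so that run does not cover scan time. Alternatives changed the background correction, scaling, detection filter, outlier spots, value table, block, arrays fitted, test and fold limit, and each array was left out in turn.

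The switch genes and the lists (epithelial junction and keratin genes, epithelial regulators, mesenchymal matrix and cytoskeleton genes, other transcription factors of the switch, TGF-beta and BMP pathway, cadherins and catenins, fibronectin receptor integrins, corepressors and other partners of Snail and Zeb, and markers of 8 cell types) were chosen with earlier results of these data known. Genes named are the 10 switch genes, up to 3 genes called higher and 3 lower in ED against ES from each list, up to 3 in each direction after irradiation, and the 3 genes nearest to Cdh1, Epcam, Vim and Fn1. Zfp42, Klf4, Ovol1, Ptprc, Ocln, St14 and the 3 catenins were named after their values were seen. Promoters are from RefSeq, build GRCm38.p6. The study's other experiments are not covered.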

Additional observations from a re-analysis of the deposited data

Results flagged for a closer look

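The interaction of Snai1 at 15 min, which tests the difference between the cell types itself, passed but was not stable. The change was 0.63 in ES cells and -0.73 in ED cells on the log2 scale, and the interaction was -1.36 (limma adjusted p 0.0212). The value in ED cells rests on 1 usable spot, since replicates 2 and 3 of EDRE were outliers. With outlier spots kept the interaction was -1.49 (adjusted p 0.0143), but the call was lost with normexp correction (0.0971), array median scaling (0.0838), a scan block (1.00) or 1 of 6 arrays left out, and without replicate 1 of EDRE there was no fit. Neither change within a cell type passed both thresholds.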

How the results depend on the processing

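Of the changes in ED against ES, 8 of 10 genes kept their direction and their call in 14 alternatives, where these gave a value, and with each of 18 arrays left out. The ranges over the alternatives were -13.27 to -11.12 for Cdh1, -9.75 to -7.60 for Epcam, 2.55 to 3.34 for Vim, 1.16 to 1.90 for Snai1, 4.47 to 5.32 for Snai2, 3.73 to 4.50 for Twist1, 2.42 to 3.18 for Zeb1 and 1.55 to 5.64 for Zeb2. Cdh2 lost its call with no detection filter (adjusted p 0.0519) and with a scan block (0.250), and Fn1 with normexp (0.98), quantile normalization (1.09) and a scan block (1.03). Over the alternatives Cdh2 ran from 2.71 to 3.90 and Fn1 from 0.98 to 1.70, the highest with the deposited values for Fn1. No called switch gene changed direction. Of the changes not called that were over 0.5 in size, normexp turned Zeb2 from -1.59 to 0.56 in EDRE against ED and from -2.69 to 0.21 in the interaction at 15 min, and leaving out replicate 1 of ESRL turned Cdh2 from -0.66 to 0.70 in ESRL against ES and from 0.62 to -0.74 in the interaction at 4 h (-0.66 with a replicate block). Among list genes called in EDRE against ED, normexp turned Tfap2c from -1.76 to 0.34, Sox17 from -1.44 to 0.48 and St14 from -1.39 to 0.77, and took Snai3 from -1.18 to near 0, none of them called.

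The count for the interaction at 15 min went from 1 to 0 with normexp correction, array median scaling and a scan block, and ran from 0 to 2 with an array left out. That at 4 h went from 0 to 1 (Epcam, near background in ED cells) where only the compared groups were fitted and without replicates 2 and 3 of EDRE and replicate 1 of ESRL. The count in EDRE against ED went from 0 to 1 with the unadjusted t-test (Zeb2) and with no fold limit (Snai1), and from 0 to 1 with an array left out. That in EDRE against ESRE, 6, ran from 3 to 7 with an array left out. The lowest count was without replicate 1 of EDRE, where Vim, Fn1, Snai1, Snai2 and Twist1 have no usable EDRE spot and were not tested. The cause of the other shifts was not tested. The other counts were within 1.5 times. An array left out of EDRE leaves 1 usable spot or 0 for several genes, and a lone spot is taken to have the spread of the remaining groups.

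Counts over all probes moved more. With normexp, called probes went from 129 to 76 in ESRE against ES, from 1965 to 79 in ESRL against ES, from 1187 to 3188 in EDRE against ED, from 410 to 155 in EDRL against ED, and from 555 to 58 and 304 to 18 in the interactions at 15 min and 4 h. In the same order, they went to 0, 51, 2, 92, 0 and 1 with a scan block. With only the compared groups fitted they went to 540, 411, 0 and 868 within cell types, and to 793 in the interaction at 4 h. Without replicates 2 and 3 of EDRE and replicate 1 of ESRL they went to 535 in ESRE, 751 in EDRL, and 1067 and 1196 in the interactions. The t-test gave 777 in ESRE and 910 in EDRL unadjusted, and 14 in ESRL and 1 in EDRE adjusted. In EDRE, array median scaling gave 1980, no detection filter 2469, outlier spots kept 1820, no fold limit 1809 and the values as deposited 2225. In ESRL, quantile normalization gave 973, and in the interaction at 4 h the values as deposited gave 170 and the replicate block 183. Where all arrays compared had to be well above background, ESRL had 553, EDRE 754, the interaction at 15 min 276, EDRE against ESRE 6443 (from 11399) and EDRL against ESRL 8421 (from 12933), with fewer probes tested. With an array left out the counts ran from 29 to 315 in ESRE, 834 to 4151 in ESRL, 249 to 5702 in EDRE, and 139 to 6459 and 131 to 1406 in the interactions.

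Replicates that share a number did not resemble each other across groups (correlations from -0.37 to 0.21, 5 of 45 over 0.1). With replicate number as a block, 9, 5, 7 and 1 genes were called in ED against ES, EDRE against ESRE, EDRL against ESRL and the interaction at 15 min.

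Each gene has 1 probe, so there was no other probe to try. The t-test gives no interaction. Normexp used the median signal, since the files hold no mean. The signal over background limits Cdh1, Epcam and Zeb2, and the files hold 3 arrays per group.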

Other observations

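Other genes of the lists changed after irradiation. Tek, an endothelial receptor, had values of -4.83, -4.40 and -4.30 in ED and -1.53, -2.16 and -2.11 in EDRL, with no overlap. It rose by 2.58 (limma adjusted p 5.95e-06), by 2.93 with scan time as a random block (adjusted p 0.00176), and EDRL minus replicate 1 of EDRE, in the shared scan time, was 2.29. Its interaction at 4 h was 2.23 (adjusted p 0.00307), and that call was lost with normexp correction (0.422) or a scan block (0.452). In ESRE against ES, Grhl1 rose by 1.64 (adjusted p 0.0364), and the call was lost with normexp correction, quantile normalization or a scan block (adjusted p 0.670, 0.143 and 1.00).

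In ESRL against ES, Pdgfra fell by 1.40, Itga5 by a log2 change of -1.27 and Sox17 of -1.18 (limma adjusted p 0.00656, 0.0190 and 0.0169). In EDRE against ED, Tgfb1 changed by -1.84, Tfap2c by -1.76 and Pou5f1 by -1.68, and Dab2 by 1.16 (adjusted p 0.0301, 0.0326, 0.00634 and 0.0430). Itga5 lost its call with array median scaling (-0.96), quantile normalization (-0.62, adjusted p 0.167) and without the 3 dimmer arrays (-0.88), and Sox17 with array median scaling (adjusted p 0.0707). None of these 7 was called with scan time as a block, and Dab2 was the only one of them called with normexp correction. Without replicates 2 and 3 of EDRE and replicate 1 of ESRL, which are dimmer, Dab2 changed by 0.29, Tfap2c by -0.72 and Pou5f1 by -0.93, and none of the 3 was called. Tgfb1 rests on those 2 EDRE arrays, and with the outlier spot of replicate 1 kept it changed by -1.12 (adjusted p 0.109, not called). In EDRE, 1 of 3 samples was well above background for Tfap2c and for Pou5f1, and normexp correction turned the change of Tfap2c to 0.34. The interaction at 15 min was -2.30 for Pou5f1 and -1.46 for Esrrb (adjusted p 0.0128 and 0.0170), and neither was called with scan time as a block or normexp correction. Lyz2, Bmp7 and Ocln were called higher in it, but for Bmp7 and Ocln no ED sample and for Lyz2 no ESRE sample was well above background, so no size is given, and these calls were lost with a scan block or normexp correction too.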
